A study of Mus musculus with 7 samples.

Results

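The sites described here are SOX2 binding events of mouse striatal cells that have a FRA2 event within 100 bp and no JUND event within 100 bp. They were chosen by position alone, and 2091 of 26433 SOX2 events (7.91%) met the rule. Of the 14913 SOX2 events with FRA2 in that range they made up 14.02%. A further 12822 SOX2 events had both FRA2 and JUND within 100 bp, 3553 had JUND without FRA2, and 7967 had neither.

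Binding was measured by ChIP-seq, in which DNA bound by a protein is pulled down with an antibody and sequenced, in the striatal lines STHdhQ7 (genotype HdhQ7/Q7) and STHdhQ111 (HdhQ111/Q111), called Q7 and Q111 below. Both lines were derived from the striatum of 129SvEv/CD1 embryos at day 14, were used below passage 15, grew at 33 °C and were held at 39 °C for 2 days before the experiment. FRA2, JUND and IgG were assayed in each line and SOX2 in Q7, giving 7 samples, each a pool of replicates 1 and 2. Every group thus held 1 value, and the differences between lines given below are differences between 2 pooled libraries with no replicate check. They cover counting error only, and sequenced reads are not independent molecules. Positions are single bases of the mouse build mm9, and reads in events came to 1193914 for SOX2, 3340554 and 3498922 for FRA2 in Q7 and Q111, and 1660158 and 1609483 for JUND. An mm9 sequence or annotation was not used here, so sites are named by position, without genes or motifs.

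SOX2 is an HMG-box transcription factor of neural progenitors that binds the minor groove of DNA and often acts beside a partner factor. FRA2 and JUND are leucine-zipper proteins of the AP-1 family: FRA2, of the FOS branch, cannot pair with itself and binds DNA as a dimer with a JUN protein, and JUND is 1 of the JUN proteins that can fill this place. The labels list no other JUN protein among the samples. In Huntington's disease a glutamine tract in huntingtin is expanded, as in the Q111 allele, and the striatum is the region hit first.

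The distance to the nearest JUND event shows how many of these sites stood clear of JUND. The median was 1123 bp, with quartiles of 153 and 10206.5 bp and a range of 101 to 1051487 bp. JUND lay 101 to 1000 bp away at 1030 sites (49.3%) and farther at 1061 sites (50.7%). Per base the sites were densest against the limit, with 515 (24.6%) that had JUND at 101 to 150 bp, while the much wider range of 1001 to 10000 bp held 534 (25.5%). At 101 to 150 bp the FRA2 event itself had a JUND event within 100 bp at 374 sites (72.6%). JUND lay on the same side of SOX2 as FRA2 at 392 of 514 sites (76.3%) in that range. At most of these sites, then, SOX2 lay to one side of a FRA2 and JUND pair. Past 200 bp no FRA2 partner had a JUND event within 100 bp, as the distances require, and at 201 to 500 bp JUND was on the side of FRA2 at 121 of 243 sites (49.8%). Over all 2091 sites, 397 (19.0%) had a FRA2 event with JUND within 100 bp of it, which leaves 1694 that lacked JUND measured from SOX2 and from FRA2.

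**Figure D1:**
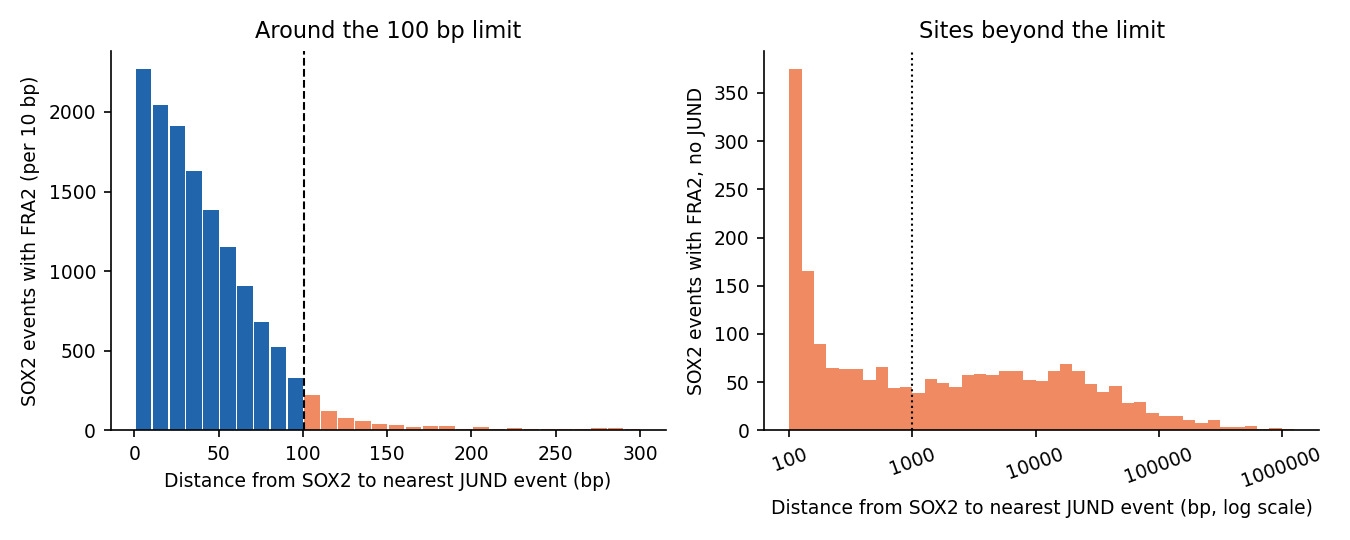
Left, SOX2 events with FRA2 within 100 bp, counted per 10 bp of distance to the nearest JUND event, blue up to the 100 bp limit (dashed) and orange beyond it. Right, the 2091 sites beyond the limit on a log axis of distance, with 1000 bp dotted. Counts fell without a break across the limit, from 328 at 91 to 100 bp to 219 at 101 to 110 bp, and a second broad group lay between 1000 and 100000 bp.

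Both sides of the limit held sites with JUND within 10 bp of FRA2. Just outside, at 101 bp, the site at chromosome 11 position 56188202 had 72 SOX2 reads, 238 FRA2 reads in Q7 and 210 in Q111, and its JUND event was 4 bp from its FRA2 event. The site at chromosome 5 position 73681384, also at 101 bp, had 124 SOX2 reads and a JUND event 10 bp from FRA2. Chromosome 11 position 64750953 had 70 SOX2 reads and chromosome 3 position 80821861 had 81, with JUND 5 and 15 bp from FRA2. Just inside, at 100 bp, chromosome 9 position 102666014 had 75 SOX2 reads and JUND 1 bp from FRA2, and chromosome 16 position 10754709 had 124 SOX2 reads and JUND 55 bp from FRA2. Chromosome 12 position 16158249 (77 SOX2 reads) and chromosome 15 position 64350915 (198.9) had JUND 67 and 129 bp from FRA2. These 8 sites differ in class by 1 bp of measured distance.

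The JUND events nearest to the sites had more reads in Q7 than JUND events at large, out to 10000 bp. At 101 to 150 bp the nearest JUND event held 37 (Q7) and 25 (Q111) reads at the median, against 28 and 27 over all JUND events. In Q7 the median was 37.4 on to 200 bp, 39 at 201 to 500 bp, 33.4 at 501 to 1000 bp and 32 at 1001 to 10000 bp. At 10001 to 100000 bp the medians in Q7 and Q111 were 27 and 25, close to those of all JUND events. A JUND event with fewer reads than the table lists is not seen: the lowest listed total over both lines was 21 reads, and the median was 54. At 1267 of the sites (60.6%) the FRA2 event had fewer reads over both lines than the median JUND event. This sets reads of different libraries side by side, with no correction for their depth.

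SOX2 reads at these sites were low. The median was 31 reads (quartiles 25 and 43, range 20 to 475.9), against 38 (28 and 59) where both FRA2 and JUND were present, 32.7 with JUND alone, 28 with neither and 33 over all SOX2 events. At least 100 SOX2 reads were reached by 89 sites (4.26%), against 1179 (9.195%) of those with both proteins. The control signal was the same in all of these classes, with a median of 4.3. From the lowest to the highest quartile group of SOX2 events by reads, the share of FRA2-bound SOX2 events that lacked JUND was 21.4, 16.9, 12.5 and 8.48%. These differences between classes of events are descriptive and were not tested, since events of 1 library are not replicates.

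Most sites with strong SOX2 had JUND just beyond the limit. Sites with JUND over 1000 bp away had a median of 28 SOX2 reads (highest 165), the same median as SOX2 events with neither AP-1 protein, and sites with JUND at 101 to 1000 bp had 35 (highest 475.9). Of the 89 sites with at least 100 SOX2 reads, 68 had JUND within 200 bp and 9 had it over 1000 bp away. All 14 sites with at least 200 SOX2 reads had JUND within 200 bp.

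**Figure D2:**
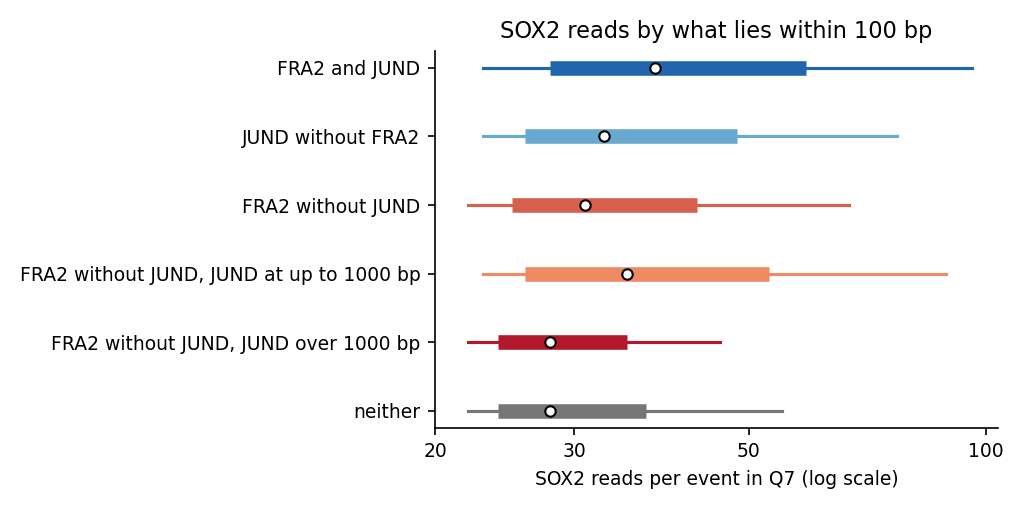
SOX2 reads per event in Q7 (log axis) for classes of SOX2 event, with the median as a circle, the quartiles as a thick bar and the 10th to 90th percentiles as a thin line. Among events with FRA2 and no JUND, those with JUND at 101 to 1000 bp had a median of 35 reads and those with JUND farther away had 28, as did events with neither protein.

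The 8 sites with the most SOX2 reads illustrate this. Chromosome 10 position 85563357 had 475.9 SOX2 reads, a FRA2 event 90 bp away with 376.7 (Q7) and 179.3 (Q111) reads, and a JUND event 188 bp away with 320.8 and 137.1. Its FRA2 reads were 2.17-fold higher in Q7 (interval 1.815 to 2.61, exact binomial test, Benjamini-Hochberg adjusted p = 4.11e-17), a call that was lost with a dispersion of 0.05 in the libraries, and this site was also among the 5 with the most FRA2. At chromosome 8 position 70605994, SOX2 had 416.9 reads and FRA2, 11 bp away, 53.8 in Q7 against 13.9 in Q111, with JUND at 171 bp. Both of these sites thus had more FRA2 in the line where SOX2 was mapped. Chromosome 11 position 70011979 was not called: SOX2 had 316.9 reads and FRA2 153.5 in Q7 and 134.5 in Q111, a ratio of 1.18 with an interval (0.935 to 1.51) that includes 1, and JUND lay 13 bp from FRA2 and 108 bp from SOX2. At chromosome 9 position 60159583, with 241.4 SOX2 reads, FRA2 stood at 38.5 (Q7) and 1.9 (Q111) reads. The remaining 4 were at chromosome 19 position 4213817 (342.9 SOX2 reads, FRA2 116.8 in Q7 and 39.7 in Q111), chromosome 4 position 107168883 (289, FRA2 33.6 and 6.8), chromosome 11 position 62277251 (252.1, FRA2 31.2 and 6.9) and chromosome 6 position 67052923 (243.8, FRA2 108.7 and 64.1, not called). All 8 had JUND between 105 and 188 bp, and FRA2 was called higher in Q7 at 6 of them.

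Strong SOX2 with JUND far away was rare, and the 5 strongest such sites, chosen after their values were seen, are given for contrast. Chromosome 10 position 27134080 had 165 SOX2 reads, with FRA2 7 bp away at 27 (Q7) and 6 (Q111) reads and JUND 35752 bp off. Chromosome 14 position 65864461 had 143 SOX2 reads, with FRA2 13 bp away at 45 and 5 reads and JUND at 98097 bp. Chromosome X position 74740763 also had 143 SOX2 reads, with FRA2 32 bp away at 37 and 4 reads and JUND at 13875 bp. At each of these sites SOX2 reads, as deposited, exceeded FRA2 reads in both lines. The remaining pair, at chromosome 7 positions 133360531 (140 SOX2 reads, FRA2 38 and 2) and 71102129 (133 SOX2 reads, FRA2 30 and 3), followed the same order, SOX2 above FRA2 in Q7 above FRA2 in Q111.

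SOX2 and FRA2 positions were close at the sites without JUND nearby and spread out at those with JUND just past the limit. The median spacing was 42 bp (quartiles 20 and 70), against 33 bp (16 and 55) where JUND was also present. Sites with JUND over 1000 bp away had a median of 34 bp, with 31.5% of them at 20 bp or less, much as in the class with JUND (32.2%). Sites with JUND at 101 to 1000 bp had a median of 52.5 bp, and 20.7% lay at 20 bp or less. At 101 to 150 bp the median was 69 bp. The rule itself favours this. JUND had to lie over 100 bp from SOX2, so a FRA2 event close to such a JUND event had to lie far from SOX2. The wide spacings near the limit are thus not a result apart from the rule. FRA2 was at the higher coordinate of SOX2 at 1032 sites, at the lower at 1050 and at the same base at 9. Spacings above 80 bp made up 16.6% of all sites, against 7.57% in the class with JUND.

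**Figure D3:**
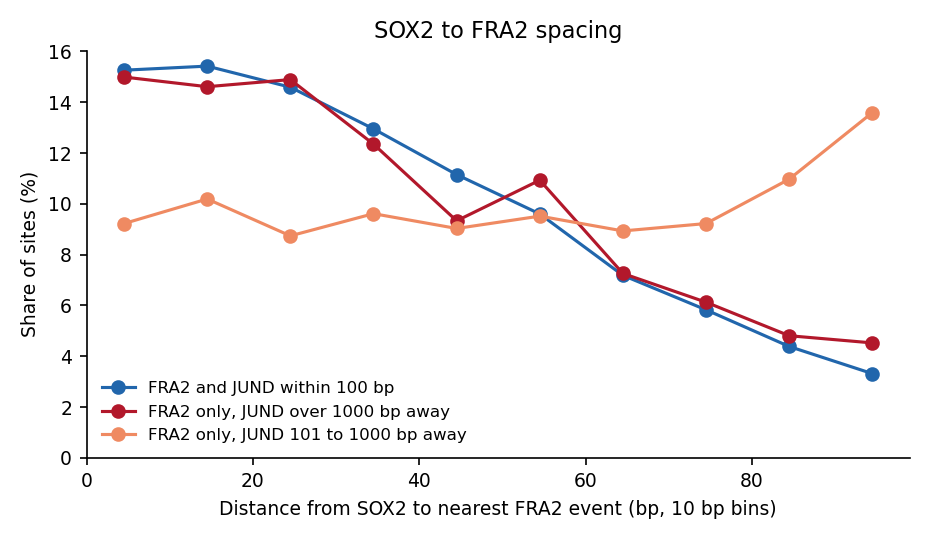
Share of sites per 10 bp of distance between the SOX2 event and its nearest FRA2 event. The line for sites with JUND over 1000 bp away (red) starts at 15.0% and follows the line for sites with JUND (blue, 15.3%), while sites with JUND at 101 to 1000 bp (orange) start at 9.22% and reach 13.6% at 90 to 99 bp.

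Spacing was wider at sites with more SOX2 reads, with medians of 40, 36, 46.5 and 52 bp from the lowest to the highest quartile group of SOX2 reads. Split by spacing, SOX2 medians were 29, 30 and 33 reads at spacings of up to 20 bp, 21 to 60 bp and over 60 bp, and JUND lay over 1000 bp away at 61.1, 56.7 and 34.7% of them. The widest spacings thus held the smallest share of sites clear of JUND, which the rule favours as described above. Each site had its own nearest FRA2 event, and only 4 of 2091 had a pair of FRA2 events within 100 bp. Another SOX2 event lay within 500 bp at 12.1% of the sites and at 10.04% of those with both proteins.

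The share of sites without JUND was lower where FRA2 had more reads. FRA2 events were divided into quartile groups by their reads over both lines: 21 to 42, 42.1 to 64, 64.1 to 119, and 119.1 to 4551.2 reads. Of SOX2 events with FRA2 in these quartile groups, 47.5, 25.7, 12.65 and 2.22% lacked JUND within 100 bp. FRA2 events away from SOX2 showed the same order, with 84.6, 69.8, 36.8 and 4.95% lacking JUND, measured there from the FRA2 event. The lowest quartile group supplied 874 of the 2091 sites and the highest supplied 159.

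The 159 sites with the most FRA2 were mainly sites with JUND within 1000 bp. Their median spacing was 82 bp, against 32 bp for sites with JUND in the same quartile group, and 12 of them (7.55%) had JUND over 1000 bp away. This wide spacing, too, is favoured by the rule where JUND lies close to FRA2. In the lowest quartile group the spacing was 39 against 36 bp, and 539 sites (61.7%) had JUND over 1000 bp away. SOX2 medians in the 4 quartile groups were 30, 30, 32 and 40.3 reads at these sites and 36, 34, 35.6 and 41 where JUND was present, so the gap between the classes was smallest where FRA2 was strongest.

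Beyond the site at chromosome 10 position 85563357, the sites with the most FRA2 reads differed by less than 2-fold between the lines. At chromosome 6 position 94355489 the FRA2 event held 348.1 (Q7) and 334.4 (Q111) reads, with 34 SOX2 reads 79 bp away and JUND 36 bp from FRA2. Chromosome 3 position 80821861 had 302 and 299 FRA2 reads, 81 SOX2 reads 86 bp away, and JUND 15 bp from FRA2. Chromosome 2 position 90452452 had 281 and 367.9 FRA2 reads, 1.27-fold more in Q111 with an interval (1.08 to 1.49) that excludes 1, and chromosome 12 position 52984041 had 232.8 and 250.7. None of these 4 reached the 2-fold limit of a call, and JUND lay 101 to 115 bp from SOX2 at each. Scaled by control reads in place of events present in both lines, the latter pair leaned to Q7 instead. With JUND over 1000 bp away, the most FRA2 reads (a choice made after the values were seen) were found at chromosome 17 position 12997820, with 99 in Q7 and 45 in Q111 and 24 SOX2 reads, and the next at chromosome 10 position 77086111, with 90.7 and 51.7.

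Between the lines, FRA2 at these sites was mostly lower in Q111. The median FRA2 event had 30 reads in Q7 (quartiles 24 and 43, range 2 to 376.7) and 15.1 in Q111 (8 and 27.75, range 0 to 367.9). The median log2 ratio of Q111 over Q7, with 0.5 reads added and scaled to events present in both lines, was -1.09 (quartiles -2.01 and -0.35), and it was below 0 at 84.1% of the sites. Over all 64579 FRA2 events the medians were 30.9 and 32.8 reads, the median log2 ratio was 0.00098 and 49.96% were below 0. By the exact binomial test with Benjamini-Hochberg adjustment over all FRA2 events and a fold of at least 2, FRA2 was called higher in Q7 at 1053 sites (50.4%), against 21.3% of all FRA2 events. It was called higher in Q111 at 46 sites (2.20%), against 23.3% of all FRA2 events, and 992 sites were not called. Scaled by control reads instead, the calls higher in Q7 and in Q111 were 64.7 and 0.765% of the sites, against 30.5 and 16.4% of all FRA2 events. Allowing each library a dispersion of 0.05 left 663 (31.7%) and 10 (0.478%) sites called, against 12.2 and 13.99% of all FRA2 events.

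The present marks are not separate from the reads, since events marked present in a line had at least 20 reads there. FRA2 was marked present in Q7 alone at 1365 sites (65.3%), in both lines at 613 (29.3%) and in Q111 alone at 113 (5.40%). Over all FRA2 events these shares were 26.7, 47.6 and 25.7%. Of the 1053 calls higher in Q7 at the sites, 960 were at events marked in Q7 alone. The same held for 10556 of 13755 such calls over all FRA2 events. Most of these calls thus rest on events marked present only in the line where they are higher. Among the 613 sites present in both lines the median log2 ratio was -0.23, with 15.2% called higher in Q7 and 2.45% higher in Q111, against 10.4 and 10.8% of all FRA2 events present in both. SOX2 events were listed for Q7 alone, so a lean of FRA2 toward Q7 at SOX2 sites and the choice of sites in that line cannot be told apart. The control signal was slightly higher in Q111, with means of 4.37 in Q7 and 5.95 in Q111 at these sites and 4.30 and 5.71 over all FRA2 events.

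**Figure D4:**
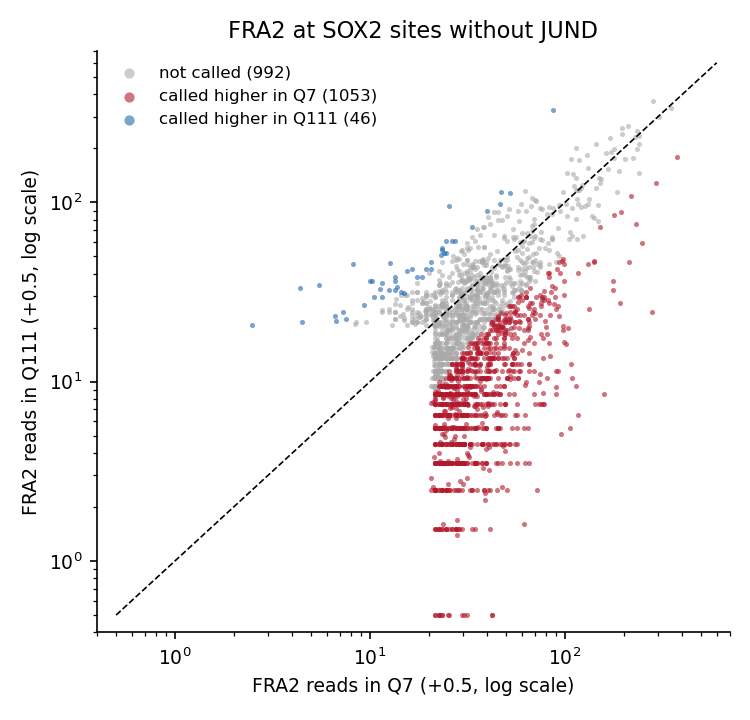
FRA2 reads in Q7 (horizontal) and Q111 (vertical) at the 2091 sites, both on log axes with 0.5 added, with equal reads dashed. Of the points, 1053 were called higher in Q7 (red), 46 higher in Q111 (blue) and 992 were not called (grey); events marked present in Q7 had at least 20 reads there, which gives the vertical edge.

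The lean toward Q7 was also found at SOX2 sites with JUND, and in both classes it was smaller where FRA2 had more reads. At FRA2 events with both SOX2 and JUND the medians were 78 reads in Q7 and 52 in Q111, the median log2 ratio was -0.48, and 32.1% were called higher in Q7 and 3.57% higher in Q111. Within quartile groups of FRA2 reads the values of the 2 classes came close together. Those called higher in Q7 were 68.2, 41.1, 38.2 and 22.0% of the sites without JUND, and 65.7, 40.5, 40.3 and 21.7% of those with JUND. The median log2 ratios were -1.74, -0.77, -0.69 and -0.21 without JUND and -1.63, -0.69, -0.69 and -0.29 with it. FRA2 events without SOX2 were called higher in Q7 at 26.6, 14.2, 10.9 and 5.32% without JUND and 25.4, 19.1, 16.5 and 8.70% with it. Calls higher in Q111 stayed between 1.26 and 3.77% of the sites in the 4 groups. At SOX2 sites with JUND they stayed between 2.48 and 3.955%. At FRA2 events without SOX2 they ran from 24.7 to 34.1% without JUND and from 25.5 to 38.9% with it. The difference between sites with and without JUND was not tested, since events are not replicates, and the read total that sets the quartile groups includes the reads compared. Events marked present in a line had at least 20 reads there. In the lowest group only 4 of 874 sites without JUND were marked in both lines, against 153 of 159 in the highest. The fall in calls across the groups thus cannot be told apart from this read limit.

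**Figure D5:**
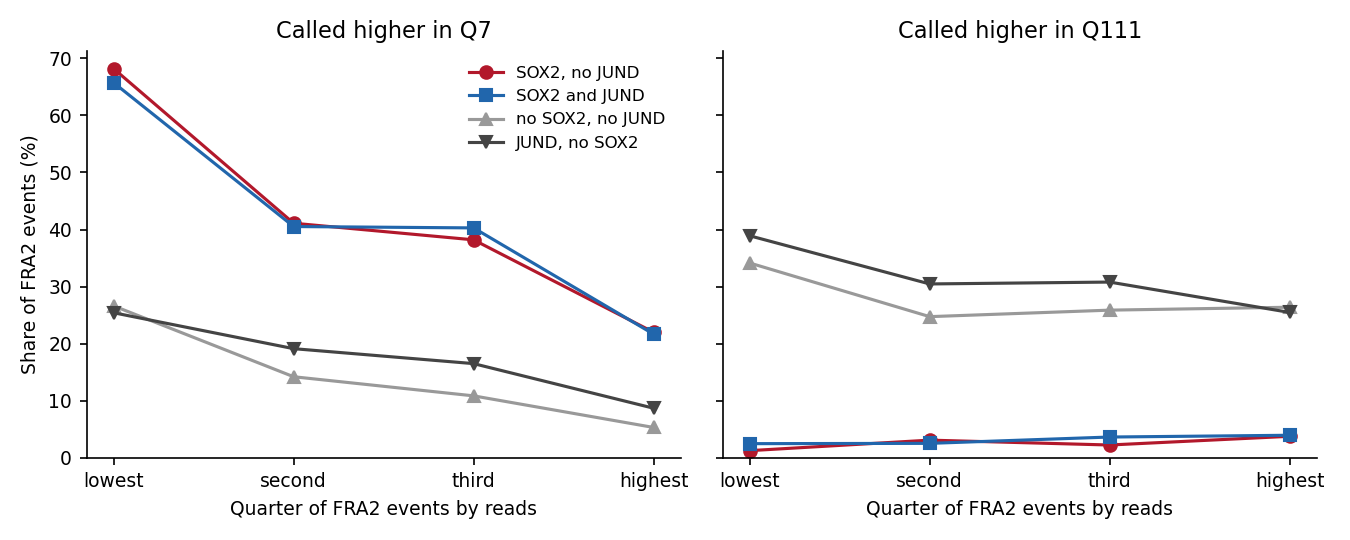
Share of FRA2 events called higher in Q7 (left) and in Q111 (right) by quartile group of FRA2 reads over both lines, for FRA2 events with SOX2 and no JUND (red), SOX2 and JUND (blue), neither (light grey) and JUND without SOX2 (dark grey). The red and blue lines lie close together in all 4 quartile groups, at 68.2 and 65.7% called higher in Q7 in the lowest and 22.0 and 21.7% in the highest, above both lines without SOX2.

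Sites with JUND at 101 to 200 bp leaned less to Q7 than sites farther from JUND. Their median log2 ratio was -0.79, and 263 of 632 (41.6%) were called higher in Q7. With JUND over 1000 bp away FRA2 had medians of 29 reads in Q7 and 13 in Q111, a median log2 ratio of -1.30, and calls higher in Q7 at 591 of 1061 sites (55.7%). Among the 1061 sites, the log2 ratio was -1.21 at 1001 to 10000 bp, -1.285 at 10001 to 100000 bp and -2.04 at the 74 sites beyond. At those 74 sites FRA2 had medians of 28.5 and 8 reads, and 68.9% were called higher in Q7 and 1.35% higher in Q111. With JUND at 101 to 1000 bp the medians were 33.35 and 20 reads and the log2 ratio -0.96. Of these 1030 sites, 462 (44.9%) were called higher in Q7 and 26 (2.52%) higher in Q111. Over all FRA2 events these shares were 21.3 and 23.3%. Where the FRA2 event itself had JUND within 100 bp the medians were 48 and 29.3 reads and the log2 ratio -0.74. FRA2 reads differed between these groups as well, so distance and FRA2 strength moved together, and the part of each was not tested.

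SOX2 strength moved with the FRA2 difference in the same direction. From the lowest to the highest quartile group of SOX2 reads, the sites had FRA2 medians of 27.3, 29, 31.35 and 37 reads in Q7 and of 17, 15, 13.4 and 15.05 in Q111. Their share called higher in Q7 was 43.6, 47.55, 55.5 and 59.1%, while the share with JUND over 1000 bp away was 64.6, 58.0, 46.6 and 22.8%. FRA2 in Q7 thus was higher at stronger SOX2 sites and FRA2 in Q111 was not. Across the 2091 sites Spearman's rho between SOX2 reads and FRA2 reads was 0.23 for Q7 and -0.03 for Q111, given as a description, since SOX2 and FRA2 in Q7 share the cell line and all sites share libraries. Where JUND was present these values were 0.25 for Q7 and 0.04 for Q111, so this pattern was not particular to the sites without JUND. FRA2 in Q7 and Q111 correlated at 0.34 at the 2091 sites and at 0.72 where JUND was present. The median FRA2 reads over both lines were 47 and 134, so these 2 values are not matched for reads. SOX2 reads exceeded FRA2 reads in Q7 at 1085 sites (51.9%), against 23.9% where JUND was present, with no correction for the depth of the libraries.

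The sites with the farthest fold intervals toward Q7 lay both near JUND and far from it. At chromosome 1 position 73281899 42 FRA2 reads were found in Q7 and none in Q111. With Q111 set to the floor of 3 reads Q7 was 14.45-fold higher, a value that depends on the floor. The 95% interval of the fold reached down to 11.25 (exact binomial test, Benjamini-Hochberg adjusted p = 4.20e-12). SOX2, 96 bp from FRA2, had 26 reads, and the nearest JUND event was at 454398 bp. Chromosome 12 position 95470536 had the same FRA2 reads, 36 SOX2 reads 43 bp away and JUND at 50801 bp. Chromosome 17 position 75728737 had 71 FRA2 reads in Q7 and 2 in Q111, with JUND at 6393 bp. At these 3 sites FRA2 was at or near 0 in Q111, with no JUND within 1000 bp. The other two had strong SOX2 and JUND close by: chromosome 10 position 24204199 had 114.6 SOX2 reads, FRA2 at 158 and 8 reads and JUND 138 bp away at 129.9 and 7.7 reads, and chromosome 3 position 36100365 had 138.1 SOX2 reads, FRA2 at 61.5 and 1.1 and JUND 150 bp away at 92 and 11. JUND reads at this pair of sites, too, were fewer in Q111; JUND was not tested.

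Sites called higher in Q111 were few (2.20%, against 23.3% of all FRA2 events), and the 5 with the fold interval farthest from 1 had low SOX2. From the lowest to the highest quartile group of SOX2 reads, calls higher in Q111 made up 3.26, 2.78, 1.27 and 0.761% of the sites. At chromosome 10 position 26615852 the FRA2 event held 86 (Q7) and 326 (Q111) reads, 3.66-fold higher in Q111 (2.89 to 4.71, exact binomial test, Benjamini-Hochberg adjusted p = 3.52e-30). Its JUND event, 5 bp from FRA2 and 103 bp from SOX2, had 37 and 133 reads, and SOX2 had 25. Reads of both AP-1 proteins were thus more numerous in Q111 at this place. Chromosome 4 position 72607936 had 7.7 and 44.7 FRA2 reads and, 117 bp from SOX2, 3.3 and 48.7 JUND reads. Chromosome 1 position 165443062 had 3.9 and 32.8 FRA2 reads with JUND at 110 bp, chromosome 3 position 104324631 had 5 and 34 with JUND at 8741 bp, and chromosome 8 position 87604737 had 2 and 20.3 with JUND at 2377 bp. SOX2 had 21 to 27 reads at these 5 sites, below the median of 31.

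The 5 sites farthest from any JUND event had 21 to 52 SOX2 reads, and FRA2 was called higher in Q7 at 2 of them. Chromosome 18 position 48863842, with JUND at 1051487 bp, had 22 SOX2 reads and FRA2 16 bp away at 34 reads in Q7 and 30 in Q111. Chromosome 3 positions 139596281 and 139580948 shared their nearest JUND event, at 824968 and 809635 bp, and had 21 and 52 SOX2 reads. FRA2 was called higher in Q7 at the first (56 and 6 reads) and not at the second (21 and 14). Chromosome 7 position 60121358 had 38 SOX2 reads and FRA2 at 43 and 7, and chromosome 2 position 21895183 had 24 SOX2 reads and FRA2 at 45 and 30.

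The lean toward Q7 was found on every chromosome with sites. On each of the 20 chromosomes the median FRA2 log2 ratio at these sites was below 0 and below that of all FRA2 events of the chromosome. It ran from -1.60 on chromosome 18 to -0.89 on chromosome 15, while the medians of all FRA2 events ran from -0.47 on chromosome 17 to 0.34 on chromosome 14. The sites made up 12.4% (chromosome 16) to 22.4% (chromosome X) of the SOX2 events with FRA2, with 45 of 201 on chromosome X.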

How the data were processed

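ChIP-seq reads of 7 samples, each a pool of 2 replicates, had been aligned with Bowtie 0.12.7 to mm9, per the submitters' processing notes. The authors deposited 3 tables of binding events named after the GPS caller, whose version and parameters the sources used here do not give. IP columns are expected counts of reads per event, per the file headers and deposited values, with 78.0 to 89.6% whole, and were rounded to whole reads for the test. Control columns are a signal, per the file headers: scaled control reads from a library the headers do not name. The deposited q-value is given as −log10, and a deposited mark of 0 or 1 says whether an event was present in a line. Another 22 value columns were left aside. IgG tables were not analysed here.

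An event of another table counted as shared within 100 bp. FRA2 in Q111 and Q7 was compared over the whole FRA2 table by a two-sided exact binomial test (smaller tail doubled) of the Q111 share of reads. Scaling used the median log2 ratio (0.05) over events present in both lines. Benjamini-Hochberg adjustment covered 64579 events, all with at least 20 reads. Calls needed a 2-fold difference, with 0.5 reads added, and an adjusted p under 0.05. Intervals of folds are 95% Clopper-Pearson intervals, and a line at 0 reads was set to a floor of 3 reads. The procedure was run on simulated counts with counting error alone, which is the error the test assumes. That run checks the code and not the calls in these libraries.

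Sites named are the 8 with the most SOX2 reads, the 5 with the most FRA2 reads, the 5 per direction with the fold interval farthest from 1, the 5 farthest from JUND, and the 4 nearest the limit on each side. The members and lists were chosen with earlier results of these data known. Planned gene lists, sequences and motif searches needed mm9 references and were not run. Alternatives changed the distance limits, the deposited thresholds, scaling, fold limit, assumed dispersion, pseudocount, read minimum and control. Python 3.11.15, numpy 2.4.6, pandas 2.3.3, scipy 1.17.1 and matplotlib 3.10.9 were used.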

Additional observations from a re-analysis of the deposited data

How the results depend on the processing

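No paired analysis was possible because each group is 1 pooled sample, and for the same reason no replicate could be left out. The median FRA2 log2 ratio at the sites stayed below 0 under the alternatives run. The other medians and the counts cannot change sign. Many values changed in size, mostly because fewer or other sites entered. In the order of number of sites, median SOX2 reads, spacing, JUND distance, FRA2 log2 ratio, and calls higher in Q7 and in Q111, the values that moved were as follows. With a 50 bp limit (2456 sites) the medians were 33 reads, 28 bp, 97 bp and -0.85, with 70 calls higher in Q111. With a 200 bp limit (1827 sites) they were 29 reads, 4139 bp and -1.22. Without JUND within 100 bp of FRA2 either (1694 sites), spacing was 35 bp, JUND distance 2829 bp and the ratio -1.21. Without JUND within 1000 bp, 1061 sites remained, with 28 reads, 34 bp, 9865 bp, -1.30, and 591 and 20 calls. With FRA2 present in Q7 (1978 sites) the ratio was -1.19, with 15 calls higher in Q111. A SOX2 −log10 q of at least 5 left 1101 sites, with 42 reads, 47 bp, 383 bp, -1.24, and 599 and 15 calls. The same limit for FRA2 left 1098 sites, with 33 reads, 46 bp, 394 bp, -1.02, and 550 and 29 calls. As a share of sites, calls higher in Q7 stayed between 43.1 and 55.7% over these definitions, and calls higher in Q111 between 0.758 and 2.85%. Over all FRA2 events, with no such filter, these shares were 21.3 and 23.3%.

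Scaling by control reads moved the median of all FRA2 events to -0.36 and that of the sites to -1.45. It left 16 calls higher in Q111 (0.765%, against 16.4% of all FRA2 events). It made calls higher in Q7 64.7% of the sites, against 30.5% of all FRA2 events, and turned the ratios at chromosome 2 position 90452452 (-0.0205) and chromosome 12 position 52984041 (-0.30). The cause was not tested. An assumed dispersion of 0.05 left 663 and 10 calls (all FRA2 events 12.2 and 13.99%), and ended the call at chromosome 10 position 85563357. A read minimum of 50, which 956 sites met, left 355 and 25 of the sites called. Of the 41611 FRA2 events tested, 17.8 and 20.1% were called. A fold limit of 1.5 gave 76 calls higher in Q111 (3.635%, against 27.4% of all FRA2 events). The median ratio was -0.93 with a pseudocount of 5 and -1.59 with control reads subtracted. Of the ratios at the 34 named sites over these fits, 10 lost their call, 3 gained one and 2 turned. At 20 to 50 reads an event supports only large folds, and JUND below the listed 21 reads is not seen.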
